A study of Oryza sativa with 12 samples.

Results

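Across the 4 genotypes of this rice culm series, 122 genes formed a descending staircase. Their mean level was highest in wild type, lower in the line labelled TAC4L-KO, lower again in the line labelled TAC4-KO and lowest in the line labelled for both genes. The members were chosen from 55986 genes by their measured values. Group means of FPKM (fragments counted for a gene, a level scaled to gene length and library size) plus 1 had to fall at least 1.5-fold at each of the 3 steps. The WT mean had to be at least 20 FPKM and the double-KO mean at least 1 FPKM, and 2 loci were left out by the rule, 1 of which met these thresholds. The fall of the members is therefore a property of the choice, and their levels are given as a description.

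Poly(A) RNA of culms, the jointed stems of rice, was measured at the heading stage in 12 libraries of the japonica cultivar Zhonghua 11 (ZH11), 3 for each group. The groups were wild type (WT), TAC4-KO (LOC_Os02g25230), TAC4L-KO (LOC_Os04g19140) and TAC4L/TAC4-KO, called double-KO here. Titles call the lines knockouts and the genotype field calls them knockdowns. The labels name no edited site, no number of independent lines or clones and no separate plants, so the spread between libraries of a group may be technical.

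TAC4 is known in rice as a gene of tiller angle and shoot gravitropism, the bending of the shoot against gravity, and TAC4L is named for its likeness to it. A culm matures from the dividing base of each internode upward, from elongating cells with thin walls to cells with thick secondary walls and, in some cells, stored starch. A tissue sample of such an organ holds cells of several of these stages, and in bulk RNA fewer cells of a type and less RNA per cell cannot be told apart. The deposited table lists its genes by locus identifier with no names, and 0 of the 122 members matched the reference table, so members are given by identifier and without roles. The digits before the g in an identifier give the chromosome. The exception is LOC_Os10g25290, which published rice nomenclature pairs with TIFY11d, a JAZ repressor of jasmonate signalling. The reference holds that symbol on chromosome 10 but does not pair it with the locus, and a wrong pair would misname it.

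The table as a whole set these limits. Depth inferred from the smallest FPKM steps spanned 2.58-fold, with WT replicate 1 the shallowest and double-KO replicate 2 the deepest, and 0 of 66 pairs of libraries held identical values. TAC4 itself was not lower in the lines labelled for it, at 7.32, 4.75 and 5.59 FPKM in WT, 9.83, 8.22 and 8.36 in TAC4L-KO, 13.5, 9.13 and 11.5 in TAC4-KO and 16.5, 15.3 and 13.2 in double-KO. TAC4L was low throughout, at 0.883, 0.453 and 0.798 FPKM in WT, 0.64, 0.651 and 0.307 in TAC4L-KO, 0.336, 0.515 and 0.282 in TAC4-KO and 0.527, 0.376 and 0.395 in double-KO. Its TAC4-KO mean (0.378) was below its TAC4L-KO mean (0.533), although TAC4-KO is not labelled for it. The labels do not give the nature of the alleles, and why TAC4 was not lower was not tested. The groups are called by their labels.

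The staircase was the most frequent of the 24 possible orders of the 4 groups. With the same thresholds applied to each order, 225 genes met them in all, and 123 of these stood in the order WT, TAC4L-KO, TAC4-KO, double-KO. The reverse order, a graded rise, held 52 genes. The next order held 12, and 10 orders held none. The 122 members were 2.18% of the 5604 genes with a WT mean of at least 20 FPKM. Of those 5604 genes, 941 passed the first step, 353 passed the first and the second, and 175 passed all 3 when no minimum was set in double-KO.

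**Figure D1:**
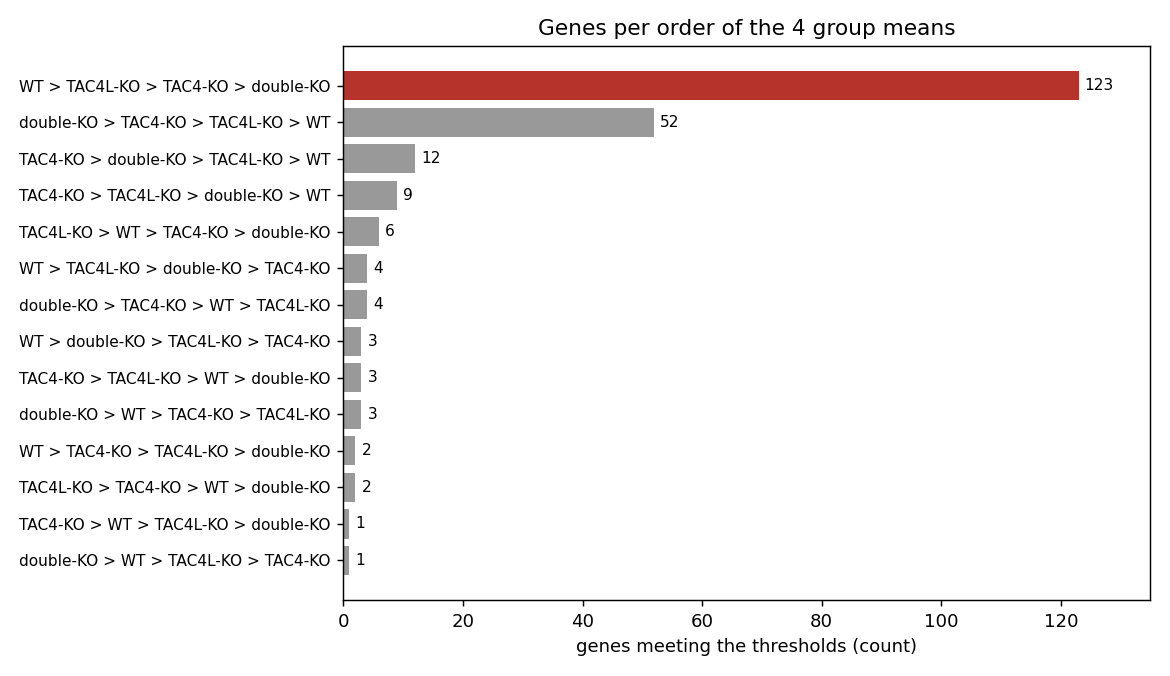
Number of genes (x axis) that met the thresholds in each order of the 4 group means (y axis, highest group first), for the 14 orders with at least 1 gene. The descending staircase held 123 genes, which includes 1 locus that the rule leaves out, and the reverse order held 52.

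The members lay in a broad range of levels. Their WT means ran from 21.1 to 3703 FPKM with a median of 88.7, and the medians of the group means were 33.6 FPKM for TAC4L-KO, 13.7 for TAC4-KO and 4.59 for double-KO. Together they took 2.91% to 4.76% of the FPKM total of a WT library, 0.674% to 2.62% in TAC4L-KO, 0.382% to 0.867% in TAC4-KO and 0.203% to 0.242% in double-KO. The range was thus wider in TAC4L-KO than in any other group, and its lowest library was below the highest TAC4-KO library. The members were found on all 12 chromosomes, from 2 on chromosome 9 and 2 on chromosome 11 to 23 on chromosome 3.

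By ratios of group means the 3 steps had similar medians. The rule set the same 1.5-fold minimum at each, so nothing is read from the likeness. The median ratio of mean FPKM plus 1 was 2.08 from WT to TAC4L-KO, 2.15 from TAC4L-KO to TAC4-KO and 2.19 from TAC4-KO to double-KO, and 12.9 from WT to double-KO. On means of log2(FPKM + 1) the first step had the largest median change (-1.24, -1.03 and -1.01). With median-of-ratios scaling these medians were -1.37, -0.94 and -0.90. The first step was the largest for 42 members, the second for 35 and the third for 45. In 53 members the 3 steps lay within 1.5-fold of each other, and in 42 the largest step was at least 2 times the smallest. All 3 steps were at least 2-fold in 36 members.

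The most abundant member was LOC_Os05g33380. It stood at 2954, 3005 and 5151 FPKM in WT, 3265, 1803 and 511 in TAC4L-KO, 297, 736 and 368 in TAC4-KO and 244, 291 and 308 in double-KO. Neighbouring groups overlapped at every step, since TAC4L-KO replicate 1 lay above 2 of the WT libraries, TAC4L-KO replicate 3 below TAC4-KO replicate 2, and TAC4-KO replicate 1 below double-KO replicate 3. The second step carried 53.6% of its fall on the log2 scale.

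Among the other 7 of the 8 members with the highest WT means, 3 had TAC4L-KO replicate 3 below all TAC4-KO libraries. LOC_Os08g37670 stood at 1026, 939.8 and 2355 FPKM in WT, 1169, 268 and 98.9 in TAC4L-KO, 183, 282 and 219 in TAC4-KO and 74.9, 82 and 116 in double-KO. LOC_Os07g38630 stood at 1159, 1018 and 1406 in WT, 1161, 353 and 76.4 in TAC4L-KO, 157, 413 and 80.8 in TAC4-KO and 48, 131 and 104 in double-KO. In both, TAC4L-KO replicate 1 was inside the WT range. LOC_Os06g48200 stood at 741, 531 and 747 FPKM in WT, 804, 248 and 45.8 in TAC4L-KO, 68, 91.3 and 84 in TAC4-KO and 14.2, 17.8 and 34.7 in double-KO. Its highest library of all was TAC4L-KO replicate 1.

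LOC_Os08g05910 and LOC_Os02g33820 had no step that carried the fall alone. LOC_Os08g05910 stood at 602, 553 and 956 FPKM in WT, 515, 289.9 and 161 in TAC4L-KO, 113, 247 and 94.7 in TAC4-KO and 46, 82.2 and 60.7 in double-KO, with ratios of 2.18, 2.12 and 2.39. LOC_Os02g33820 stood at 713, 513 and 384 in WT, 264, 423 and 125 in TAC4L-KO, 60.3, 170.3 and 27.2 in TAC4-KO and 23.8, 25.9 and 42 in double-KO. In the first of these genes only the second step overlapped, and in the other all 3 did.

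**Figure D2:**
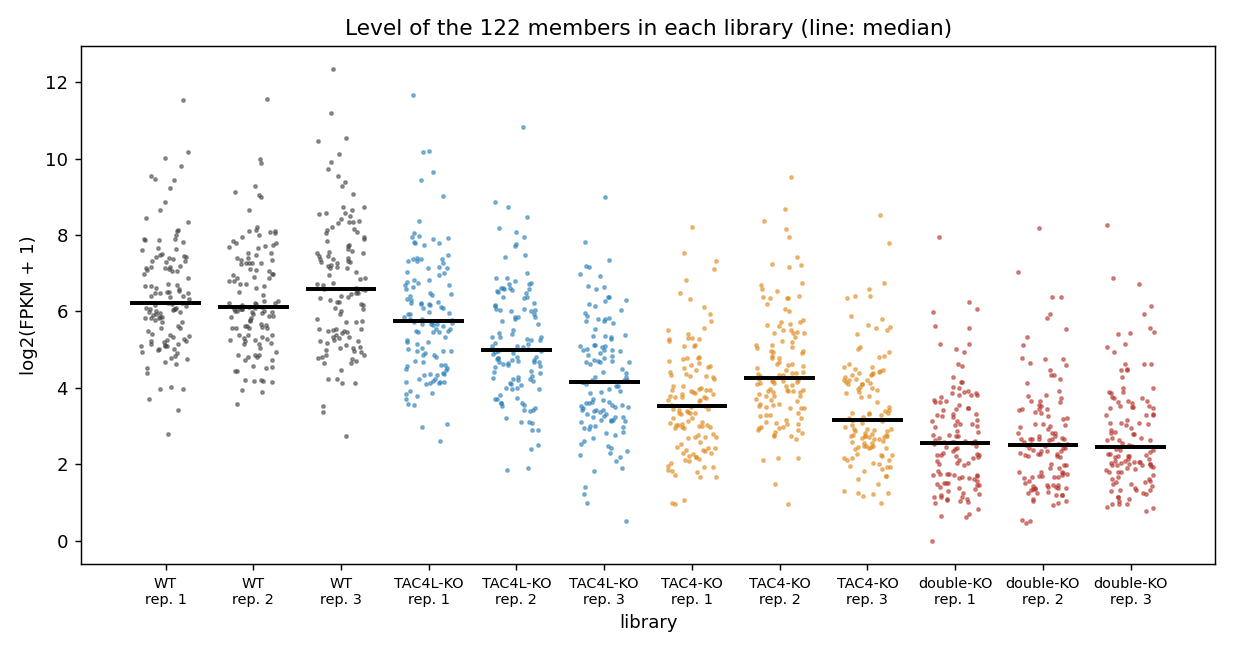
Level of the 122 members as log2(FPKM + 1) (y axis) in each of the 12 libraries (x axis), with 1 point per member and a line at the median. The medians run from 6.59 in WT replicate 3 to 2.44 in double-KO replicate 3, and TAC4L-KO replicate 3 (4.15) lies below TAC4-KO replicate 2 (4.27).

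A minority of members kept the 4 groups apart library by library. At each step, a member was counted when all 3 libraries of the lower group lay below all 3 of the higher group, a comparison the rule used through the means. This held for 53 members at the first step, 37 at the second and 82 at the third. Over all 5604 genes with a WT mean of at least 20 FPKM it held for 14.8%, 19.3% and 30.9%. The rule used these contrasts, so nothing is read from the members' counts against these shares. All 3 steps were free of overlap in 14 members, 2 steps in 41, 1 in 48 and none in 19. Of all 5604 genes, 77 (1.37%) were free of overlap at all 3. The libraries of WT and double-KO were apart in all 122 members, those of WT and TAC4-KO in 118, and those of TAC4L-KO and double-KO in 110. Over all 5604 genes the shares apart in the same direction were 38.1%, 30.4% and 38%.

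The clearest separation was in LOC_Os12g01530 and LOC_Os11g01530. LOC_Os12g01530 stood at 141, 163 and 164 FPKM in WT, 60.2, 54.5 and 34.1 in TAC4L-KO, 14.2, 16.6 and 10.3 in TAC4-KO and 3.24, 3.58 and 4.2 in double-KO, and its steps were 3.10, 3.45 and 3.14-fold. LOC_Os11g01530 stood at 200.3, 254 and 158 in WT, 107, 81.1 and 57.8 in TAC4L-KO, 23.5, 30.5 and 15.3 in TAC4-KO and 5.84, 5.37 and 5.47 in double-KO, and its steps were 2.47, 3.44 and 3.67-fold. In both, every library stood on its own side of each step. The ends of rice chromosomes 11 and 12 are known to carry a recent duplication, and where copies are near-identical the counting can split or share reads between them, so these may not be independent observations.

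The next separated members had their largest step at the third or the second step. LOC_Os06g11310 stood at 62.9, 71.7 and 70.5 FPKM in WT, 28.2, 44.6 and 21.6 in TAC4L-KO, 14.4, 5.69 and 5.48 in TAC4-KO and 1.83, 1.06 and 0.95 in double-KO. LOC_Os07g41600 stood at 101, 103 and 152 in WT, 75.6, 70.1 and 54.4 in TAC4L-KO, 38.6, 35.5 and 17.8 in TAC4-KO and 4.56, 4.12 and 8.72 in double-KO. For both the third step was the largest, at 41.9% and 53.6% of the log2 fall. LOC_Os02g46860 stood at 63.6, 73.2 and 91.2 in WT, 49.9, 31.7 and 14.7 in TAC4L-KO, 5.03, 9.13 and 4.35 in TAC4-KO and 3.33, 1.69 and 2.47 in double-KO, with 49.5% of the fall at the second step.

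Of the 8 most widely separated members, LOC_Os01g73170 and LOC_Os02g58150 had their largest step first. LOC_Os01g73170 stood at 116, 123 and 88.9 FPKM in WT, 37.3, 41.7 and 27.4 in TAC4L-KO, 18.8, 23.3 and 20.9 in TAC4-KO and 11.4, 5.33 and 10.1 in double-KO. LOC_Os02g58150 stood at 29.8, 37.3 and 29.7 in WT, 10.9, 12.2 and 15.5 in TAC4L-KO, 9.01, 6.48 and 6.49 in TAC4-KO and 5.47, 3.78 and 2.95 in double-KO. LOC_Os02g39010, the gentlest staircase of the 8, stood at 33.2, 36.4 and 33.8 in WT, 22.1, 22.6 and 13.5 in TAC4L-KO, 10.6, 10.3 and 9.21 in TAC4-KO and 7.81, 5.71 and 3.85 in double-KO. Within TAC4L-KO, LOC_Os02g58150 was highest in replicate 3, as in 3 members in all.

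**Figure D3:**
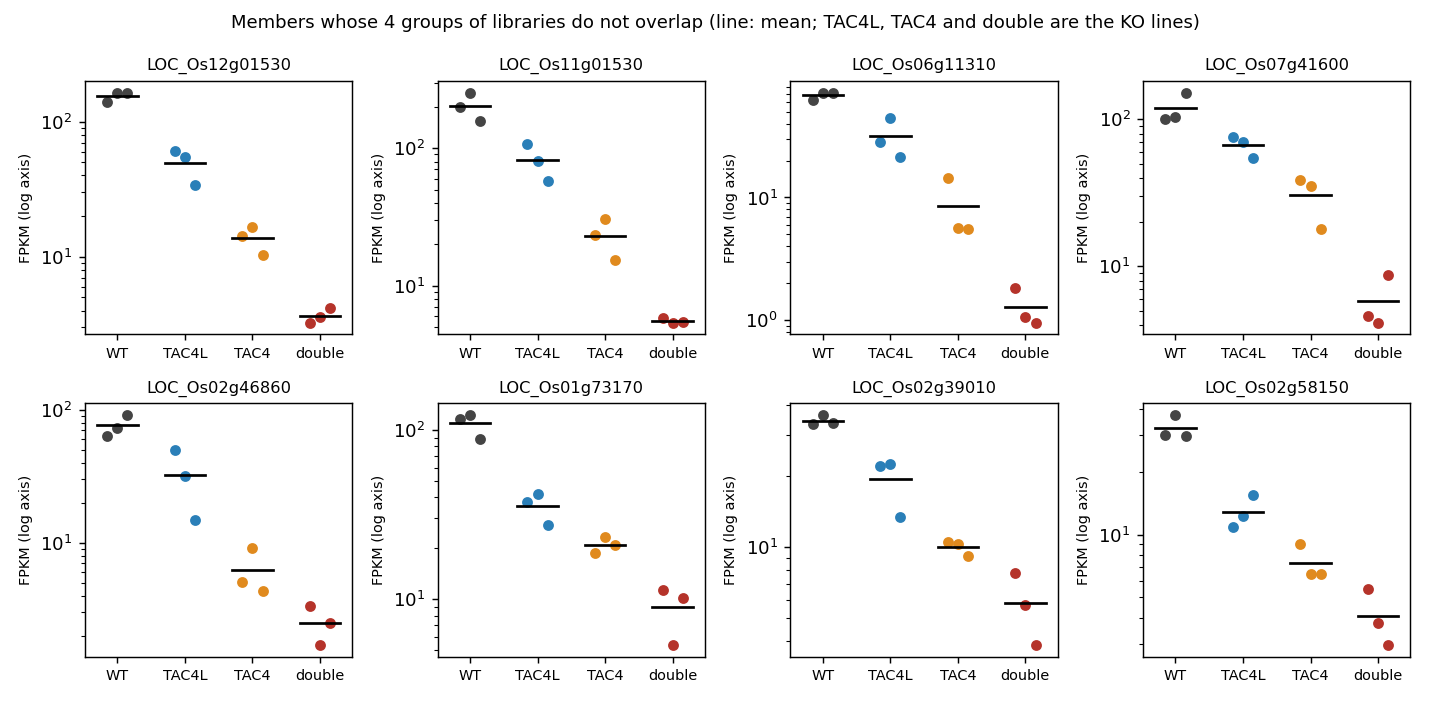
FPKM on a log axis (y) in the 3 libraries of each group (x; points are libraries, lines are means of n = 3) for the 8 members with the widest smallest gap between neighbouring groups. In each panel no library crosses into a neighbouring group, from 141 to 164 FPKM in WT down to 3.24 to 4.20 in double-KO for LOC_Os12g01530.

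The libraries of TAC4L-KO were spread along the staircase rather than gathered on 1 step. Within that group replicate 1 was highest in 95 members (77.9%) and replicate 3 lowest in 110 (90.2%). In the other 5482 genes with a WT mean of at least 20 FPKM these shares were 39.7% and 40%. Replicate 1 lay within or above the WT range in 60 members, replicate 2 in 20 and replicate 3 in 4. Replicate 3 lay at or below the highest TAC4-KO library in 82 members, replicate 2 in 24 and replicate 1 in 4. These range counts were not made for other genes, so they only describe the members. The ratio of replicate 1 to replicate 3 had a median of 2.92 and reached 47.4 in LOC_Os10g25290. It was at least 2 in 85 members (69.7%) and in 10.5% of the other 5482 genes. The rule chose members that change strongly between groups, so nothing is read from the contrast with other genes.

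TAC4-KO libraries were spread in the same way, with replicate 2 on the WT side. Replicate 2 was the highest of its group in 100 members (82%), and in 41.7% of the other 5482 genes. It lay above TAC4L-KO replicate 3 in 79 members and below it in 43, which was not counted in other genes. The median SD of log2(FPKM + 1) over the members was 0.444 for WT, 0.783 for TAC4L-KO, 0.62 for TAC4-KO and 0.333 for double-KO (n = 3 libraries each). In the other 5482 genes with a WT mean of at least 20 FPKM it was 0.325, 0.237, 0.212 and 0.228 in the same order. These were lower in every group than in the members, which were chosen for large changes between groups, so nothing is read from the difference.

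Within WT, TAC4L-KO and TAC4-KO, the members ordered the libraries as the first principal component of the other tested genes did. Within double-KO the order depended on the measure, over small differences. The median positions defined below (-1.17%, -0.19% and 1.17% in replicates 1 to 3) ran opposite to the component. The median levels as log2(FPKM + 1) (2.57, 2.50 and 2.44) ran with it. The order of the groups in the members was set by the rule, so nothing is read from that part of the likeness. On a scale where 100% is the WT mean and 0% the double-KO mean of each member (log2), the median member stood at 84.9%, 69.6% and 44.8% in TAC4L-KO replicates 1 to 3 and at 23.5%, 48% and 19% in TAC4-KO replicates 1 to 3. The first principal component of the 19062 tested genes outside the set, which took 51.1% of their variance, placed WT at -72.8, -71.8 and -86.6, TAC4L-KO at -49, -35.6 and 4.74, TAC4-KO at 28.4, 10.2 and 43.9, and double-KO at 73.9, 76.5 and 78.2. Both measures put TAC4L-KO replicate 3 and TAC4-KO replicate 2 next to each other in the middle, the component with TAC4L-KO replicate 3 nearer to WT and the members with TAC4-KO replicate 2 nearer to WT. The libraries fall into groups, so no correlation over all 12 is given.

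**Figure D4:**
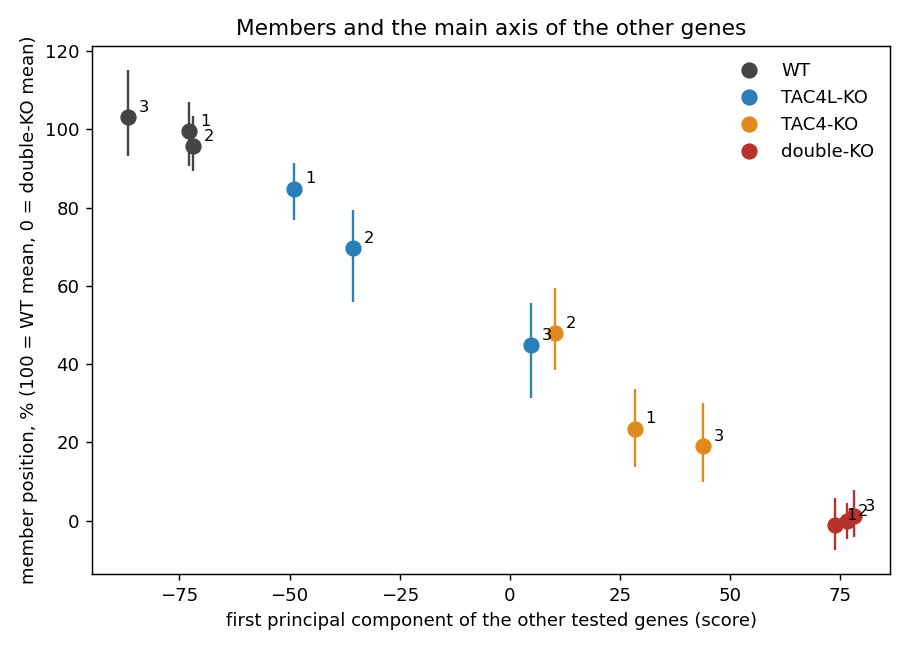
Median position of the members between the double-KO mean (0%) and the WT mean (100%) with lower and upper quartiles over 122 members (y axis), against the first principal component of the 19062 other tested genes (x axis). Each point is 1 library numbered by replicate, and TAC4L-KO replicate 3 (44.8%) and TAC4-KO replicate 2 (48%) lie side by side.

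The member with the widest spread in TAC4L-KO was LOC_Os10g25290, the locus paired with TIFY11d. It stood at 61.2, 66 and 155 FPKM in WT, 45.9, 2.72 and 0.968 in TAC4L-KO, 0.969, 6.03 and 1.8 in TAC4-KO and 1.01, 1.56 and 1.78 in double-KO. Its TAC4L-KO mean came almost wholly from replicate 1, and replicates 2 and 3 lay within the range of the TAC4-KO libraries or just below it. It fell most at the first step (46.2% of the log2 fall) and least at the third (12.9%).

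LOC_Os08g10500 showed the same kind of spread at a higher level. It stood at 691, 213 and 400.3 FPKM in WT, 164, 37.6 and 6.24 in TAC4L-KO, 9.21, 34.1 and 6.29 in TAC4-KO and 4.93, 5.67 and 3.63 in double-KO, a fall of 75.9-fold. TAC4L-KO replicate 3 and TAC4-KO replicate 3 lay little above the highest double-KO library, and TAC4-KO replicate 1 (9.21) lay further above it. TAC4-KO replicate 2 lay just below TAC4L-KO replicate 2. LOC_Os05g15770, with the smallest fall of all (4.28-fold), stood at 282, 176 and 114 in WT, 139, 117 and 54.7 in TAC4L-KO, 26.8, 147 and 29.9 in TAC4-KO and 34.4, 55.7 and 41.2 in double-KO. Its TAC4-KO mean was above that of double-KO through replicate 2 alone.

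The order of WT libraries divided the members further. WT replicate 3 was at least 2 times both other WT libraries in 23 members, and WT replicate 1 was in 6. Among the 23 the median first step was 2.86-fold, against 1.97-fold in the 93 members led by neither library, and the first step was the largest in 14. Without WT replicate 3, 14 of the 23 still met the rule, and without WT replicate 1, 3 of the 6 did. TAC4L-KO replicate 1 lay within or above the WT range in 19 of the 23 and in 39 of the 93. A high WT replicate 3 raises the WT mean and widens the WT range, so a larger first step and more TAC4L-KO values inside that range follow from how the 23 were picked. These subsets were formed after the values were seen and were not tested.

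Of the 6 members with the largest falls, 3 were among these 23. LOC_Os08g24200 stood at 89.6, 166 and 1498 FPKM in WT, 153, 17.5 and 7.9 in TAC4L-KO, 5.51, 12.1 and 4.51 in TAC4-KO and 0, 0.374 and 3.66 in double-KO, where replicate 1 was listed at 0. LOC_Os01g04050 stood at 59.4, 117 and 1107 in WT, 70.8, 19.9 and 16.7 in TAC4L-KO, 3.56, 3.45 and 4.92 in TAC4-KO and 0.565, 1.06 and 3.62 in double-KO. Their ratios of 249.7 and 156 between the WT and double-KO means rest on WT replicate 3, although the other WT libraries also lay above every double-KO library. LOC_Os04g54610 stood at 90, 60 and 425 in WT, 129, 34.3 and 39.7 in TAC4L-KO, 14.8, 17.5 and 21.6 in TAC4-KO and 3.06, 0.44 and 3.06 in double-KO, and its TAC4L-KO replicate 1 exceeded WT replicates 1 and 2.

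The other 3 of these 6, LOC_Os08g10500, LOC_Os03g45280 and LOC_Os03g01320, had no WT library at least 2 times both others. LOC_Os03g45280 stood at 899, 623 and 619 FPKM in WT, 697, 468 and 226 in TAC4L-KO, 53.1, 328 and 20.2 in TAC4-KO and 7.01, 6.13 and 6.51 in double-KO. LOC_Os03g01320 stood at 198, 265 and 338 in WT, 236, 105 and 51.1 in TAC4L-KO, 12.2, 14.2 and 20 in TAC4-KO and 2.96, 0.978 and 3.58 in double-KO. LOC_Os03g45280 fell by 17.9-fold at the third step, the highest ratio of that step in the set, and its TAC4-KO libraries ran from 20.2 to 328 FPKM. LOC_Os03g01320 fell most at the second step and met the rule whichever library was left out.

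The members most weighted to the first step all had their highest level in WT replicate 3. LOC_Os05g11910 stood at 9.76, 25.7 and 157 FPKM in WT, 6.84, 9.64 and 3.25 in TAC4L-KO, 4.23, 3.3 and 2.8 in TAC4-KO and 0.972, 0.928 and 3.03 in double-KO, with 67.2% of the log2 fall at that step. LOC_Os01g64110 stood at 51.4, 54 and 264 in WT, 31.3, 4.72 and 2.55 in TAC4L-KO, 3.34, 10.6 and 5.83 in TAC4-KO and 1.14, 5.32 and 4.29 in double-KO (66.5%). LOC_Os12g44020 stood at 73.2, 63.4 and 379 in WT, 66.7, 13.1 and 8.51 in TAC4L-KO, 7.85, 23.8 and 16.9 in TAC4-KO and 5.2, 10.8 and 11.3 in double-KO (61.2%). In the last 2 genes the TAC4L-KO libraries other than replicate 1 lay below the highest TAC4-KO library.

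The members most weighted to the second step fell between the single-gene lines. LOC_Os12g05260 stood at 169, 125 and 142 FPKM in WT, 140.5, 73.3 and 39.1 in TAC4L-KO, 9.4, 20 and 9.66 in TAC4-KO and 7.14, 9.96 and 7.36 in double-KO, with 65.1% of the log2 fall at that step and no overlap there. LOC_Os01g38580 stood at 140.3, 244 and 665 in WT, 239.7, 128 and 33 in TAC4L-KO, 11.9, 17.1 and 6.65 in TAC4-KO and 3.9, 3.81 and 10.1 in double-KO (59.8%). LOC_Os05g38040 stood at 88.4, 134 and 74.6 in WT, 73.8, 57.4 and 9.68 in TAC4L-KO, 2.3, 10.6 and 1.46 in TAC4-KO and 2.09, 1.42 and 1.22 in double-KO (57.9%). The single-gene lines were apart in the first 2 of these and overlapped through TAC4L-KO replicate 3 and TAC4-KO replicate 2 in the last.

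Beside LOC_Os03g45280, the members most weighted to the third step were LOC_Os04g45370 and LOC_Os08g41290. LOC_Os04g45370 stood at 53.9, 21.9 and 32.1 FPKM in WT, 27, 27.1 and 11.2 in TAC4L-KO, 20.9, 17.1 and 4.32 in TAC4-KO and 1.2, 1.65 and 5.25 in double-KO (61.1% of the log2 fall). LOC_Os08g41290 stood at 134, 116 and 293 in WT, 222, 65.6 and 31 in TAC4L-KO, 46, 63.4 and 22.3 in TAC4-KO and 4.96, 5.35 and 5.21 in double-KO (58.7%). The double-KO libraries of LOC_Os08g41290 were within 1 FPKM of each other and below all others.

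**Figure D5:**
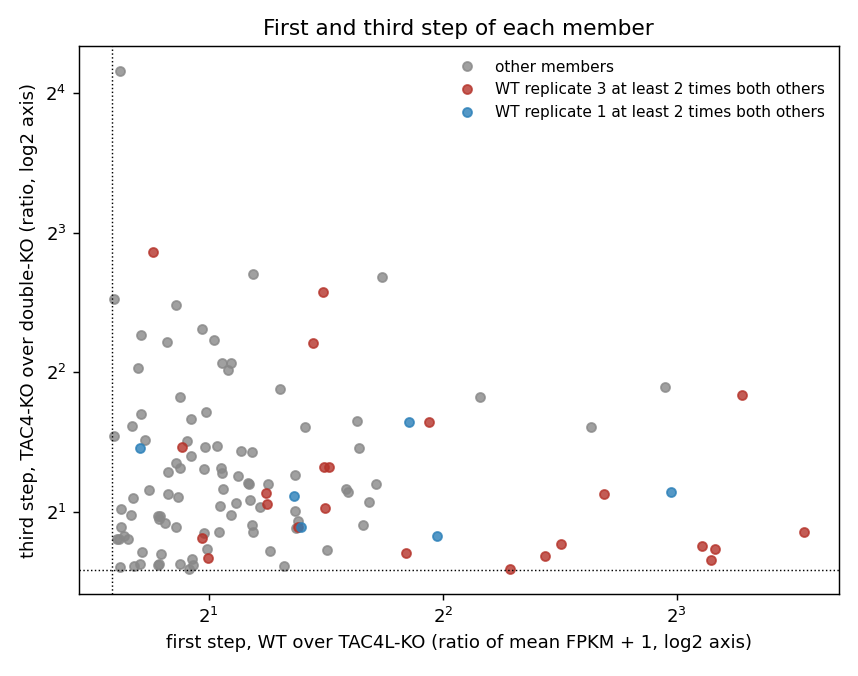
Ratio of group means of FPKM + 1 at the first step (x axis, WT over TAC4L-KO) and the third step (y axis, TAC4-KO over double-KO) for each of the 122 members, both on log2 axes, with dotted lines at the 1.5-fold threshold. Of the 23 members led by WT replicate 3 (red), 14 had their largest step first, with ratios up to 11.7 for LOC_Os01g04050.

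Only 2 pairs of members lay within 5 loci of each other. LOC_Os02g46910, 5 loci from LOC_Os02g46860, stood at 170.3, 149.6 and 231 FPKM in WT, 88.8, 50.1 and 26.7 in TAC4L-KO, 14.5, 45.1 and 9.01 in TAC4-KO and 8.44, 8.63 and 11.1 in double-KO. LOC_Os07g05570 stood at 225, 154 and 141 in WT, 177, 97 and 64.3 in TAC4L-KO, 38.5, 106 and 49 in TAC4-KO and 31.5, 45.4 and 32.5 in double-KO. LOC_Os07g05620 stood at 20, 36.9 and 97.6 in WT, 30.3, 25.8 and 19.9 in TAC4L-KO, 9.93, 14.1 and 7.79 in TAC4-KO and 7.75, 4.37 and 6.79 in double-KO. The last 2 differed in their WT libraries, since replicate 1 was the highest for LOC_Os07g05570 and the lowest for LOC_Os07g05620.

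The smallest falls after LOC_Os05g15770 were those of 3 members with WT means of 21.1, 21.2 and 36.3 FPKM. LOC_Os01g51420 stood at 12, 27.1 and 24.1 FPKM in WT, 14, 12 and 9.31 in TAC4L-KO, 8.21, 5.69 and 6.56 in TAC4-KO and 5.78, 4.75 and 1.68 in double-KO. LOC_Os03g08860 stood at 25.8, 16.9 and 21 in WT, 18, 14.8 and 7.63 in TAC4L-KO, 5.95, 8.62 and 5.7 in TAC4-KO and 4.95, 4.36 and 3.03 in double-KO. LOC_Os02g54080 stood at 35.9, 47.9 and 25.1 in WT, 19.5, 25.7 and 25.4 in TAC4L-KO, 12.6, 15.7 and 12.8 in TAC4-KO and 10, 6.86 and 5.47 in double-KO. Each fell between 4.35-fold and 4.42-fold from WT to double-KO, and in each the first step overlapped.

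The threshold cut through a dense part of the distribution. In 35 members the smallest step was under 1.6-fold, and 48 other genes missed the rule with a smallest step of 1.4 to 1.5. Just inside were LOC_Os04g27950 (ratio of 1.501 at the third step), LOC_Os04g45370 (second step 1.505) and LOC_Os04g44320 (1.506 at the third step). LOC_Os04g27950 stood at 27.6, 17.1 and 39.2 FPKM in WT, 19.3, 14.6 and 9.04 in TAC4L-KO, 4.42, 7.34 and 5.12 in TAC4-KO and 3.86, 3.9 and 2.48 in double-KO. LOC_Os04g44320 stood at 37.9, 48.4 and 208 in WT, 44.3, 6.42 and 7.07 in TAC4L-KO, 4.77, 11.9 and 7.14 in TAC4-KO and 4.49, 5.42 and 4.89 in double-KO. Just outside were LOC_Os01g68570 (means of 70.3, 46.6, 10.4 and 2.35 FPKM, first step 1.498), LOC_Os04g39900 (33.8, 18.6, 12.1 and 7.30 FPKM, second step 1.498) and LOC_Os05g41610 (207, 138, 40.6 and 4.72 FPKM, first step 1.494), in the order WT, TAC4L-KO, TAC4-KO, double-KO.

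Other genes followed the same profile without meeting the rule. By Pearson correlation of log2(FPKM + 1) over the 12 libraries with the median profile of the members, the closest was LOC_Os05g37060 (r = 0.990). It stood at 238, 241 and 354 FPKM in WT, 101, 67.6 and 10.2 in TAC4L-KO, 2.64, 14.2 and 1.64 in TAC4-KO and 0.801, 1.00 and 1.08 in double-KO, so that it missed only the double-KO minimum with a mean of 0.959. LOC_Os04g55410 (r = 0.986) and LOC_Os08g44820 (r = 0.986) had WT means of 17.9 and 16.9 FPKM and shallower falls, to 5.70 and 7.82 in double-KO. These correlations describe points that share their libraries and groups. The members themselves correlated with their median profile at 0.721 to 0.990, and 99 of the 122 at 0.9 or more.

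A fit across all genes shows how the steps compare with the replicate spread, although it adds no evidence, since the rule used these contrasts. In limma on log2(FPKM + 1), with Benjamini-Hochberg adjustment over 19184 genes, the median log2 change of the members was -1.24 at the first step, -1.03 at the second and -1.01 at the third. The same medians over all genes tested were 0.10, -0.09 and -0.12. At an adjusted p under 0.05, 19 members were called lower at the first step (3.5% of all tested genes were called lower and 3.68% higher), 14 at the second (1.37% lower and 1.68% higher) and 33 at the third (10.1% lower and 4.88% higher). From WT to double-KO all 122 were called lower (27.3% lower and 20.1% higher of all tested genes), with a median of -3.65 and a range of -7.25 to -2.03, and no member was called higher in any of the 4 comparisons.

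The number called at single steps rested on single libraries. At the first step 62 members were called without TAC4L-KO replicate 1, 4 without its replicate 2 and 3 without its replicate 3. That count was 6 without WT replicate 3, and 12 and 10 without double-KO replicates 1 and 2, which enter only through the shared estimate of the spread. At the second step 5, 1 and 47 members were called without TAC4L-KO replicates 1, 2 and 3, and 7, 35 and 1 without TAC4-KO replicates 1, 2 and 3. At the third step 21 and 16 were called without TAC4-KO replicates 1 and 2, and 19 and 16 without double-KO replicates 2 and 3. Of the 122 members, 19 met the rule whichever of the 12 libraries was left out, and LOC_Os05g15770 met it in 4 of the 12 omissions.

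The interaction asks whether the double-KO change departs from the sum of the single-line changes. This term is, on the log2 scale, the change at the third step less the change at the first, and the rule set a minimum for both. Its median was 0.11 over the members and -0.19 over all genes tested, and it was above 0 in 76 members and below 0 in 46. In limma 0 of the 122 were called, while 11% of all tested genes were called lower and 4.11% higher. An unadjusted p under 0.05 was seen in 6 members and in 33% of all tested genes. The rule used the means behind both steps, and the members varied more between libraries than other genes did. Nothing is therefore read from these counts, and they do not show that the single-line changes add up. With 1 library left out, 5 members were called without TAC4L-KO replicate 1, 2 without TAC4L-KO replicate 3, 2 without TAC4-KO replicate 3, and 1 each without TAC4-KO replicate 2 and double-KO replicate 3. The extremes were LOC_Os10g25290 (3.15), whose fall was larger at the first step than at the third, and LOC_Os03g45280 (-2.52), whose fall was larger at the third step than at the first.

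Summed levels of tissue marker lists also differed between the groups, and their part in the staircase was not tested. The loci of these lists were paired with names from published rice nomenclature. The 3 secondary wall cellulose synthase genes, which mark thick-walled culm cells, each averaged at least 1 FPKM over the 12 libraries. They summed to 598 to 1039 FPKM in WT, 1008 to 1657 in TAC4L-KO, 501 to 1375 in TAC4-KO and 38 to 92.7 in double-KO. All 5 genes of starch synthesis were detected, with sums of 207 to 256, 211 to 441, 1057 to 3700 and 8105 to 8972 FPKM in the same order of groups. Within TAC4-KO the lowest starch sum was that of replicate 2, and within TAC4L-KO the highest was that of replicate 3. The secondary wall sums had another order. They were 1375, 501 and 597 FPKM in TAC4-KO replicates 1 to 3, so replicate 2 was there the nearest to double-KO. In TAC4L-KO they were 1008, 1657 and 1242, with replicate 3 above replicate 1. The 10 green tissue genes summed to 3692 to 7950 FPKM in WT, with the lowest value in replicate 3, 5889 to 6591 in TAC4L-KO, 11160 to 12903 in TAC4-KO and 6852 to 8471 in double-KO. Of 8 floral MADS-box genes 1 averaged at least 1 FPKM, with list sums of 18.7 to 35.1, 26 to 31.1, 32.2 to 38.3 and 78.6 to 112, and the 2 meristem homeobox genes summed to 215 to 292, 214 to 330, 215 to 236 and 109 to 167. None of these 28 genes was a member, and none was at 0 in all libraries.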

How the data were processed

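Poly(A) RNA from rice culms was sequenced in 12 libraries, 3 per group. The authors deposited FPKM values per gene. HISAT2 is named in the submitters' processing notes, and no version, quantifier, genome build, annotation or strand setting was given in the sources used here. Read counts are not in the table, so depth is known only relatively, from the smallest FPKM steps, and precision per value rests on 3 libraries a group.

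The members, gene lists and tests were chosen with earlier results of these data known. The rule used group means, so every contrast between groups is a description. Named members were the 8 of highest WT mean, the 6 largest and 4 smallest falls, up to 8 without overlap, the 3 most weighted to each step, those at the threshold, members with a published name on the chromosome given by the reference, and adjacent members. The 3 most similar other genes were also named.

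The 19184 genes whose mean over the libraries reached 1 FPKM were fitted with limma 3.58.1 (R 4.3.3; trend, 12 libraries, 8 residual degrees of freedom) on log2(FPKM + 1), which understates changes of low genes, with Benjamini-Hochberg adjustment and a threshold of 0.05. The fit was tested on simulated data. Alternatives were another pseudocount, other filters and scalings, a replicate block, other rule thresholds and leaving out each library.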

Additional observations from a re-analysis of the deposited data

How the results depend on the processing

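All 122 members lay below 0 in the 3 steps and from WT to double-KO under the deposited scaling, median-of-ratios scaling and quantile normalization. The rule required these falls in the deposited values, and the median-of-ratios factors ran only from 0.85 to 1.1. The direction was therefore largely set by the choice, and nothing is read from it. Without a filter on low values, 7, 5 and 20 members were called at the 3 steps in place of 19, 14 and 33, and with quantile normalization 21 at the third. For the interaction, 2 members were called with a pseudocount of 0.1 and 1 with the replicate block, in place of 0. The cause of these changes was not tested. The rule found 318 genes with the lower minimum fold per step that was tried and 36 with a minimum of 2-fold.

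With the replicate block the counts were 15, 19 and 33 at the steps and 122 from WT to double-KO. Of 18 pairs of libraries with the same replicate number, 4 had a correlation over 0.1 (range -0.427 to 0.268). These are the replicate numbers of the sample titles, which differ from the numbers in the library names of the knockout groups. A pairing by library name was not examined, so the check cannot tell whether the libraries were paired.

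Leaving out 1 library gave 3 to 62 members called at the first step, 1 to 47 at the second, 16 to 44 at the third, 121 to 122 from WT to double-KO and 0 to 5 for the interaction. Median log2 steps ran from -1.57 to -0.76, -1.44 to -0.75 and -1.24 to -0.74, and the rule found 92 genes (72 of them members without TAC4L-KO replicate 1, and 71 without TAC4-KO replicate 2) to 130 (without WT replicate 3, 107 of them members). With group medians in place of means it found 89 genes, of which 58 were among the 122. With median-of-ratios scaling it found 109 genes and with quantile normalization 107, each with 95 of the members.

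Median-of-ratios scaling moved the median of all tested genes from 0.10 to -0.01 at the first step, from -0.12 to 0.00 at the third and from -0.19 to 0.04 in the interaction. The share of all calls that were lower then went from 48.8% to 64.8% at the first step, 44.9% to 34.8% at the second, 67.5% to 51.2% at the third and 72.7% to 50.2% in the interaction. The members' median interaction went from 0.11 to 0.36. From WT to double-KO, quantile normalization took the share of lower calls from 57.6% to 44.4%. Depth of each library is known only relatively, so counting error of low values could not be set.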
